A study of Mus musculus with 30 samples.

Results

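The genes described here belong by name to the families of histone deacetylases, acetyltransferases, methyltransferases and demethylases. With them are the Smarc and Arid genes, many of which encode subunits of the SWI/SNF chromatin remodelling complexes. Members were all autosomal protein-coding genes whose symbol begins with Hdac, Sirt, Kdm, Kmt2, Kmt5, Kat, Smarc or Arid followed by the number or letter that names these families. This gave 68 of the 55335 genes in the count table: 16 deacetylases, 7 acetyltransferases, 8 methyltransferases, 15 demethylases, 12 SWI/SNF subunits and 10 other Smarc or Arid genes. These roles were given by gene symbol, and whether each protein acts on histones was not examined. A further 13 genes with such symbols were not members, because they lie on a sex chromosome (Hdac6, Hdac8, Kdm5c, Kdm5d, Kdm6a, Smarca1), are pseudogenes (Smarca5-ps, Kat2b-ps, Smarce1-ps1, Kdm4dl, Kat6b-ps1, Kat6b-ps2) or are antisense to a member (Kdm6bos).

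RNA bound to tagged ribosomes was sequenced from the nucleus accumbens, a ventral part of the striatum, of female mice. D1-Cre-RT mice carry a Cre recombinase that marks medium spiny neurons with the D1 dopamine receptor, and A2A-Cre-RT mice carry one that marks those with the adenosine A2a receptor, which also express the D2 dopamine receptor. RT stands for RiboTag, an epitope-tagged ribosomal protein that Cre switches on, so that an antibody against the HA tag pulls down the ribosomes of the marked cells. All groups carry the tag. The libraries are called D1 and D2 here, and each class has Control mice and mice that went through chronic witness defeat stress, which were divided by their social interaction scores into Resilient and Susceptible. The 6 groups held 5 libraries each, and each library pooled 4 mice, which limits each value to a mean over those mice. The mice's age is not given in the sources used here.

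Histone acetyltransferases add acetyl groups to lysines of the histone tails, which loosens the contact with DNA and is found at active genes, and deacetylases take them off. Methyltransferases of the Kmt2 family methylate histone H3 at lysine 4, a mark of promoters and enhancers, and the Kdm enzymes remove methyl groups from this and other lysines. SWI/SNF complexes use ATP to move nucleosomes. In the nucleus accumbens, several of these enzymes, Hdac5 among them, have been studied for their part in responses to cocaine and to stress.

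Sequences are shown for 2 results below. SWI/SNF complexes hold 1 of 3 related subunits of the BAF60 type, Smarcd1, Smarcd2 or Smarcd3. Of these, Smarcd2 and Smarcd3 were called between D1 and D2 libraries in Control mice, and Smarcd3 also in Susceptible mice. The coding sequence of Smarcd3 was 73.0% identical to that of Smarcd1 over 1421 aligned bases and 71.1% identical to that of Smarcd2 over 1395. The longest stretch that the Smarcd3 transcript shared without a mismatch was 21 bases with Smarcd1 and 18 with Smarcd2, which is shorter than a usual sequencing read. The 90 bases of the coding sequence where the 3 are most alike (70 bases the same in all) are given 5′ to 3′ from GENCODE M21 transcripts, with capitals where Smarcd1 or Smarcd2 departs from Smarcd3:
Smarcd3: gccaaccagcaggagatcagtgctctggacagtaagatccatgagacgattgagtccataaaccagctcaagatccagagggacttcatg
Smarcd1: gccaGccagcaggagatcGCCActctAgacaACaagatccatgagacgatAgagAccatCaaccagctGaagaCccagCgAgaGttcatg
Smarcd2: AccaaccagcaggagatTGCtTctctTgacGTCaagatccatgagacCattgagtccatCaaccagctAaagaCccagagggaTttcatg

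The other sequences belong to 4 members called between D1 and D2 in Susceptible mice whose values were far from the rest in 2 of the D2 Susceptible libraries. Their base composition differed, and a 120-base stretch of each coding sequence whose GC content is nearest that of the whole shows it, with each CG pair in capitals. These 4 do not stand for every member. In those libraries the GC-rich Arid1b (59.1% GC over the transcript) and Arid1a (56.7%) were high, and Kdm3a (45.5%) and Kdm4c (43.7%) were low. Kmt2e (45.9% GC over the transcript) and Arid4a (44.0%) were high in those libraries, and Hdac5 (61.0%) and Hdac11 (57.4%) were low, though Sirt6, Kat8 and others given below were lower still:
Kmt2e: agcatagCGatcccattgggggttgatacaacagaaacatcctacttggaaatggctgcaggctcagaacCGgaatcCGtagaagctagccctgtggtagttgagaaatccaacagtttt
Arid4a: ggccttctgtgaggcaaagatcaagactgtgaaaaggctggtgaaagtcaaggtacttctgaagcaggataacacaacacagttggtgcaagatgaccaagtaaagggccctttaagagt
Hdac5: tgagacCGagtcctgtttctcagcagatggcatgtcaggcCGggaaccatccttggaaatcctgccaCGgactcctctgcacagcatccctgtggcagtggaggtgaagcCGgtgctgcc
Hdac11: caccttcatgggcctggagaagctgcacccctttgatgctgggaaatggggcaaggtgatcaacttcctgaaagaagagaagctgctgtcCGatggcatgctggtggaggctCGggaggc

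Of the 68 members, 53 matched RefSeq promoter windows of 250 bases before and 50 after a gene's start (GRCm38.p6), 75 windows in all. Their median CpG content was 0.809 of that given by the base composition, against 0.384 over 32851 windows of all genes. Their median GC content was 61.3%, against 52.7% over all windows. The letters GGGCGG, the core of an Sp1 site, were found on either strand in 68% of the members' windows and 35.7% of all windows. Other motifs were searched as well, and CCAAT was found in 36.0% and 37.4%. The remaining motifs, all longer, were each found in at most 2.67% of the members' windows and 2.24% of all windows. The part of GC content in the GGGCGG difference was not tested. These values are given as a description, with no test, and a match is only a match of letters.

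Libraries held 28996168 to 65882152 counts assigned to genes. In D2 Susceptible replicates 1 and 2, 15822 and 16525 genes had a count, against 19440 to 22375 in the other 28, and in D1 Susceptible replicate 1 the gene Gm42418 took 54.9% of the counts. The class labels were checked on markers: the 5 D1 markers (Drd1, Pdyn, Tac1, Isl1, Eya1) summed to 1554 to 2351 CPM (counts scaled to the size of the library) in D1 libraries and 242 to 1673 in D2, and the 4 D2 markers used (Drd2, Adora2a, Penk, Gpr6) to 1109 to 2748 and 4835 to 12698. Endothelial markers summed to 12.3 to 34.5 CPM in D1 libraries and 57.5 to 314 in D2, astrocyte markers to 28.3 to 136 and 54.2 to 184, and interneuron markers to 266 to 436 and 62.0 to 259. No marker of these lists was at 0 in any library except the microglial P2ry12 in D2 Susceptible replicate 2. Replicates are separate pools, so p-values measure the spread between pools and not between mice. In bulk RNA such as this, fewer cells of a type and less RNA per cell cannot be told apart.

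All 68 members passed the filter on low counts, and 64 had at least 10 counts in every library. Levels between genes are compared as CPM per kb of exon in Control libraries. This length takes in every annotated exon of a gene, and its excess over a coding transcript differs between genes. It was 3849 bases against 2653 for Hdac11, 4474 against 2005 for Hdac2 and 7930 against 1660 for Smarcb1. The order below holds for this length only, and Hdac2 and Hdac11 would change places with the transcript lengths. Hdac11, the only class IV deacetylase, was highest with 59.2 in D1 and 55.3 in D2, followed by the class I deacetylase Hdac2 (55.2 and 53.3) and the SWI/SNF subunit Smarcd1 (46.8 and 50.0). The ATPases of the complex, Smarca4 (30.9 and 36.0) and Smarca2 (31.0 and 32.2), its core subunit Smarcc2 (33.0 and 29.03) and Smarcd3 (24.5 and 32.0) came next. Of the 7 highest members 5 were SWI/SNF subunits. At the lower end stood Arid3b (0.377 and 0.478), the demethylase Kdm4d (0.321 and 0.251), Arid5a (0.284 and 0.189) and Arid3c (0.0299 and 0.0138), which was at 0 counts in 13 of the 30 libraries. Neighbours in this order overlapped: Hdac11 had 228 ± 17.4 CPM and Hdac2 247 ± 28.4 in D1 Control (SD, n = 5), before the division by length.

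Among deacetylases, Hdac3, the catalytic subunit of the NCoR co-repressor complex, varied least by group, with means from 64.1 to 66.6 CPM over the 6 groups. Hdac1, a partner of Hdac2, was low, with 13.6 ± 1.13 CPM in D1 Control and 13.7 ± 2.73 in D2 Control (SD, n = 5 in these and the following values). The class IIa enzymes, which shuttle between cytoplasm and nucleus, were at 34.0 ± 2.82 and 32.2 ± 1.88 CPM (Hdac4) and 71.3 ± 12.4 and 65.8 ± 9.14 CPM (Hdac5). Hdac9 of the same class was at 16.8 ± 3.78 CPM in D1 Control and 10.6 ± 2.26 in D2 Control. The NAD-dependent deacetylases had 17.4 ± 1.95 and 15.4 ± 1.63 CPM (Sirt1) and 37.2 ± 4.08 and 36.1 ± 6.43 CPM (Sirt2).

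Among acetyltransferases, Kat5 (Tip60) had 55.1 ± 5.41 CPM in D1 Control and 56.6 ± 2.05 in D2 Control, Kat6b had 37.4 ± 3.48 and 38.4 ± 1.10, and Kat2b (PCAF) had 12.5 ± 2.26 and 15.04 ± 2.30. Of the methyltransferases, Kmt2a had 52.05 ± 14.6 and 58.9 ± 14.7 CPM. Kmt2e, which belongs to the Kmt2 family by sequence, had 107 ± 23.6 and 138 ± 33.7. Of the demethylases, Kdm1a (LSD1) had 71.6 ± 5.56 and 65.5 ± 6.92 CPM, Kdm5b, which acts on methylated lysine 4 of H3, had 81.5 ± 5.39 and 80.6 ± 3.62, and Kdm6b, which acts on lysine 27, had 20.3 ± 2.00 and 23.9 ± 4.27. None of these genes had Control groups that stood wholly apart between the classes.

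Among SWI/SNF subunits, Smarca2 had 443 ± 33.1 CPM in D1 Control and 460.2 ± 56.0 in D2 Control, Smarca4 had 200.4 ± 18.6 and 233 ± 38.3, and the core subunits Smarcb1 and Smarcc2 had 97.3 ± 5.52 and 101.5 ± 10.4, and 183 ± 11.99 and 161 ± 15.4. The DNA-binding subunits of the BAF form were at 173 ± 14.2 and 208 ± 33.6 CPM (Arid1a) and 85.2 ± 11.9 and 84.7 ± 7.34 CPM (Arid1b). Smarca5, the ATPase of the separate ISWI complexes, had 116 ± 24.0 and 102 ± 3.78 CPM. In Control libraries the SD relative to the mean was wide for Kmt2a and Kmt2e and narrow for Hdac3 and Smarcb1.

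**Figure D1:**
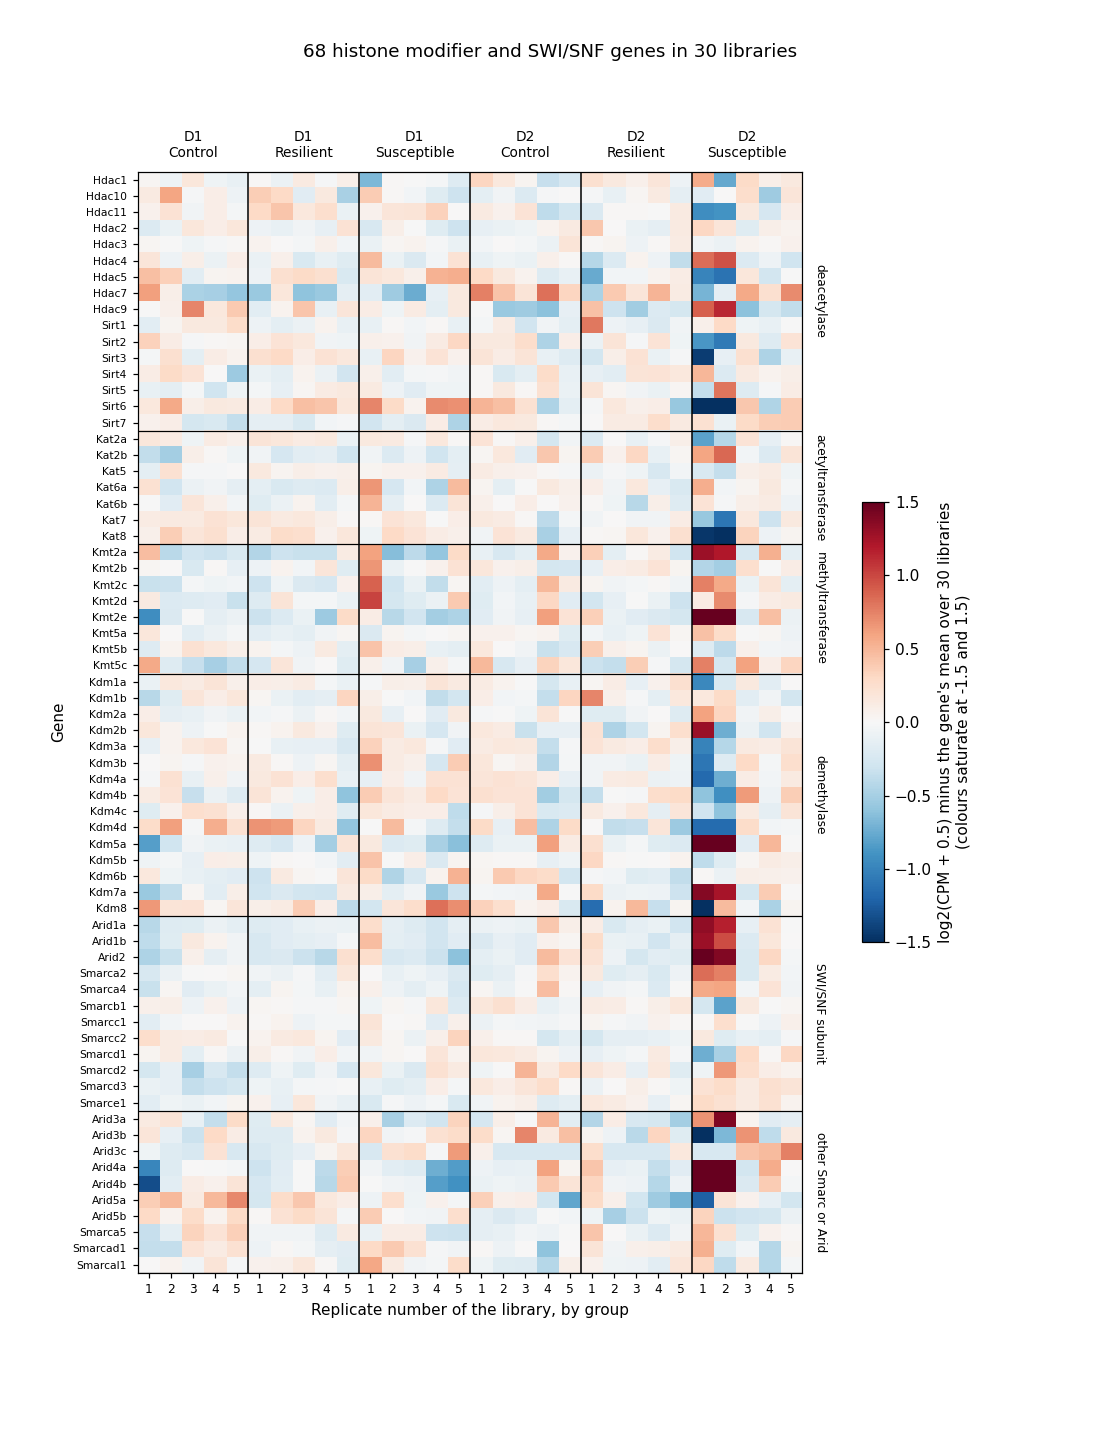
Level of the 68 members (rows, grouped by role) in each of the 30 libraries (columns, grouped by class and stress group), as log2(CPM + 0.5) minus the gene's mean over all libraries. D2 Susceptible replicates 1 and 2 have 10 members each more than 2-fold above their mean, and 9 and 6 more than 2-fold below.

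The stress comparisons asked which of these genes differ with stress or with its outcome within a class. In D1 libraries no member passed in edgeR. With edgeR's quasi-likelihood test and adjustment over all 19368 genes tested, 0 of 68 members passed between Susceptible and Control (0% of all genes), between Resilient and Control (0%) and between Susceptible and Resilient (0%). At an unadjusted p under 0.05 the counts were 3, 1 and 0 members, where 2.4%, 2.6% and 3.49% of all genes had such a p.

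The 2 members with the smallest p between D1 Susceptible and Control were Smarcd2 and Smarcd3. Smarcd2 was at 7.76, 8.62, 6.56, 7.93 and 7.28 CPM in D1 Control and at 10.7, 8.76, 8.05, 11.1 and 10.4 in D1 Susceptible. Most Susceptible values were above all Control values, but replicate 3 lay within them (log2 difference 0.36, SE 0.144, edgeR adjusted p = 1). Smarcd3 was 0.16 higher (SE 0.067, edgeR adjusted p = 1). Between D1 Resilient and Control, Smarcd3 was again first, 0.18 higher in Resilient (SE 0.067, edgeR adjusted p = 1). Under limma voom with quality weights, which gives libraries that stand apart less weight, this difference was 0.23 and was called (adjusted p = 0.0136), where 0.893% of all genes were. It was followed in edgeR by the H3 lysine 9 demethylase Kdm3a, −0.19 (SE 0.146, adjusted p = 1). Between D1 Susceptible and Resilient the first were the acetyltransferase Kat6a (0.27, SE 0.153) and the remodeller Smarcad1 (0.26, SE 0.151), both at an adjusted p of 1 in edgeR. D1 Susceptible replicate 1, with 54.9% of its counts on 1 gene, held the highest Kat6a value of its group.

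In D2 libraries no member passed in edgeR either. Between D2 Susceptible and Control, 40 members were higher in Susceptible and 28 lower by value, with a median log2 difference of 0.06, and without D2 Susceptible replicates 1 and 2 the split was 33 to 35, with a median of −0.01. Between Susceptible and Control 0 of 68 members passed, where 0.00516% of all genes did, and 15 members had an unadjusted p under 0.05 (15.7% of all genes), 13 of them higher in Susceptible. Between Susceptible and Resilient 0 passed (0.0516% of all genes), and 19 had an unadjusted p under 0.05 (19.1% of all genes), 17 of them higher. Between Resilient and Control 0 passed (0%), and 2 had an unadjusted p under 0.05 (4.2% of all genes), both lower.

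Arid1a had the smallest adjusted p of these, 0.0586 in edgeR for Susceptible against Resilient. Its values in D2 Susceptible were 500, 447, 183, 231 and 198 CPM in replicates 1 to 5, and in D2 Resilient 214, 170, 181, 185 and 163. Only replicates 1 and 2 were far above the Resilient libraries (log2 difference 0.77, SE 0.189). Against Control, at 187, 189, 186, 265 and 212 CPM, the difference was 0.59 (SE 0.188, adjusted p = 0.176). Without D2 Susceptible replicates 1 and 2 this difference was −0.03, so its direction turned. Without replicate 3 instead it was 0.73, with an adjusted p of 0.0368 in edgeR.

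Arid1b, the alternative to Arid1a in the complex, was 0.64 above Control in D2 Susceptible (SE 0.193, edgeR adjusted p = 0.159) and 0.07 without those 2 libraries. Kdm5a, a demethylase of H3 lysine 4, was 0.95 above Resilient (SE 0.262, adjusted p = 0.0761) and 0.18 without them. Left without replicates 1 and 2, the D2 Susceptible group had 3 members at an unadjusted p under 0.05 against Control (5.6% of all genes), which were Arid3c, Sirt7 and Smarce1, and 3 against Resilient (5.45%), which were Smarcd1, Smarcd3 and Kmt5c; these genes are named after their values were seen. DESeq2, in contrast, called 2 members between Susceptible and Control (1.32% of all genes) and 13 between Susceptible and Resilient (5.04%) with all libraries. Leaving out replicate 3 gave 9 called members against Control, where 4.19% of all genes were called. Leaving out replicates 3, 4 or 5 gave 15, 5 and 13 against Resilient, where 9.93%, 2.08% and 8.11% of all genes were.

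In D2 Resilient mice the members with the smallest p against Control were Smarcd3 (−0.16, SE 0.067) and Kdm6b (−0.32, SE 0.143), both at an adjusted p of 1 in edgeR. Kdm6b was at 20.9, 20.7, 18.6, 19.0 and 16.3 CPM in Resilient and 21.8, 27.9, 26.4, 25.9 and 17.4 in Control. The groups overlapped through the lowest Control library.

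The comparison of classes asked which members differ between D1 and D2 neurons. In Control mice 2 of 68 members differed (2.94%), where 8.3% of all genes did, and both were BAF60 subunits of SWI/SNF with less RNA in D1. Smarcd3 (ENSMUSG00000028949, chromosome 5, 24590818 to 24624411, minus strand, GRCm38) was at 137, 136, 115, 118 and 123 CPM in D1 Control and at 165, 159, 167, 178 and 150 in D2 Control. Every D2 library was above every D1 library. The log2 difference D1 minus D2 was −0.38 (SE 0.067, edgeR adjusted p = 0.000267), and it ranged from −0.40 to −0.33 as each library was left out, with an adjusted p of at most 0.00359.

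Smarcd2 (ENSMUSG00000078619, chromosome 11, 106263179 to 106272972, minus strand) was at 9.03, 9.43, 13.6, 10.4 and 11.7 CPM in D2 Control, above all of the D1 Control values given earlier. The difference was −0.51 (SE 0.144, edgeR adjusted p = 0.0229). Its call did not hold without D1 Control replicate 3, 4 or 5 or D2 Control replicate 3, 4 or 5, where the adjusted p rose as far as 0.116. The third BAF60 gene, Smarcd1, was at 189 ± 14.3 CPM in D1 Control and 201.2 ± 13.7 in D2 Control (SD, n = 5) and was not called. By level, Smarcd1 and Smarcd3 made up most of the BAF60 RNA in both classes, and Smarcd2 was at 2.13 and 3.02 CPM per kb in D1 and D2 Control.

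Between Resilient D1 and D2 libraries no member passed (6.65% of all genes did), and 5 had an unadjusted p under 0.05 (15.2% of all genes). Smarcd3 was at 141, 137, 145, 145 and 147 CPM in D1 and at 139, 148, 157, 149 and 141 in D2, and the groups overlapped almost wholly (−0.04, SE 0.067, edgeR adjusted p = 0.933). Between Susceptible libraries it was at 137, 130, 133, 158 and 144 CPM in D1 and 171, 178, 162, 175 and 169 in D2, again without overlap. There the difference was −0.28 (SE 0.067, edgeR adjusted p = 0.00306), −0.24 with an adjusted p of 0.0416 without D2 Susceptible replicates 1 and 2, and not called with only these 2 groups in the fit (adjusted p = 0.0872). By value the Smarcd3 difference between the classes was smallest in Resilient mice, a group that held D2 Resilient replicate 5, whose D1 markers summed to 1673 CPM (group median 340) and D2 markers to 4835 (group median 10096). Without that library the Resilient difference was −0.03 (edgeR adjusted p = 0.932). Tested directly, the change from Control to Resilient differed between D1 and D2 by 0.34 (SE 0.0946), which did not pass (edgeR adjusted p = 0.621), and by 0.33 without that library (adjusted p = 0.795). Under voom with quality weights the same difference was 0.36 with an adjusted p of 0.0236, where 0.873% of all genes were called. D2 Control varied in its markers too: D1 markers reached 1107 CPM (group median 424), and D2 markers fell to 7245 (group median 10691). The Control differences of Smarcd3 and the lost calls of Smarcd2 without single libraries are given above.

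**Figure D2:**
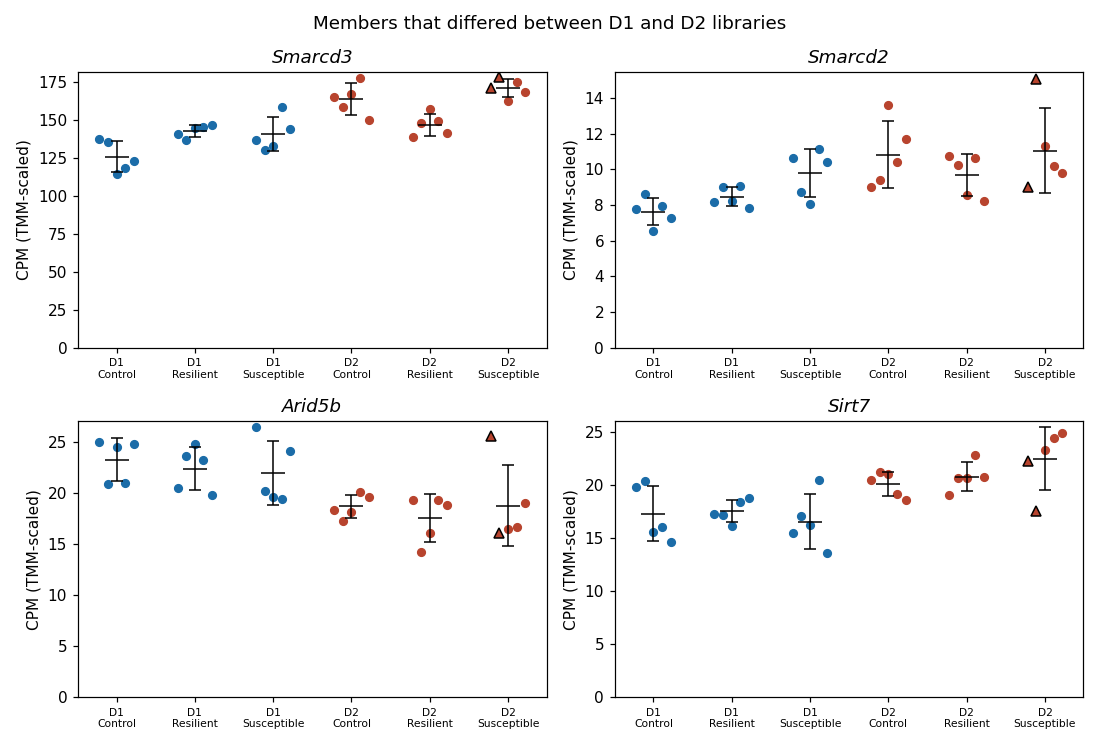
CPM of 4 members in each library (points) with the mean and SD of each group of 5 (bars), D1 libraries in blue and D2 in red, and D2 Susceptible replicates 1 and 2 as triangles. Smarcd3 separates D1 from D2 in Control and Susceptible mice but not in Resilient mice, where D1 lies between 137 and 147 CPM and D2 between 139 and 157.

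Exons of Smarcd3 overlap Chpf2 on the opposite strand, and as the strand setting of the counts is not given in the sources used here, their reads may be mixed. Chpf2 was not called in Control (0.15, SE 0.153, edgeR adjusted p = 0.677). In Susceptible it differed in the opposite direction to Smarcd3, with 0.57 (SE 0.154, adjusted p = 0.00802). Other members called in Susceptible mice have such overlaps too, among them Kmt2e (with Srpk2), Kdm5a (Ccdc77), Arid4b (Ggps1) and Hdac11 (Gm14573 and Gm44002). Their reads may be mixed as well. These partners were not called in Susceptible, with edgeR adjusted p from 0.228 to 0.851.

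Arid5b, a partner of the demethylase Phf2, leaned toward D1. It was at 25.1, 21.0, 24.6, 21.0 and 24.9 CPM in D1 Control against 18.4, 17.3, 18.1, 20.1 and 19.6 in D2 Control, and at 20.5, 23.7, 24.9, 23.3 and 19.9 in D1 Resilient against 19.3, 14.2, 16.1, 19.4 and 18.8 in D2 Resilient. Neither pair of groups overlapped. The differences of 0.32 (SE 0.122, edgeR adjusted p = 0.114) and 0.35 (SE 0.122, adjusted p = 0.0883) did not pass with all libraries in the model. Without D2 Susceptible replicates 1 and 2, where 20427 genes were tested in place of 19368, Arid5b passed in Control (0.33, adjusted p = 0.0237) and in Resilient (0.37, adjusted p = 0.0123), and the cause was not tested. In Susceptible it was 0.22 with all libraries (adjusted p = 0.188) and 0.35 without the 2 (adjusted p = 0.0527). The core subunit Smarcc2 was also higher in D1 by value in Resilient (0.19, SE 0.0836, edgeR adjusted p = 0.238).

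With the same 2 libraries left out, 4 members passed in Control, where 15.3% of all genes did, and 1 in Resilient, where 11.3% did. Besides Smarcd3, Smarcd2 and Arid5b, the other one in Control was Hdac9 (0.67, adjusted p = 0.00391). Its CPM were 13.6, 14.4, 22.9, 15.3 and 18.0 in D1 Control and 13.6, 9.07, 9.25, 8.68 and 12.5 in D2 Control. The D1 values were higher, apart from an overlap of the lowest D1 and the highest D2 library. The classes also differed in other cells' markers: in Control, 5 of 5 endothelial and 3 of 5 astrocyte markers were called higher in D2, and 4 of 5 interneuron markers higher in D1, with the summed levels given above. Their part in these member differences was not tested.

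In Susceptible mice 17 of 68 members differed between the classes (25%), close to the 23.9% of all genes. The 2 higher in D1 were Hdac5 (0.67, SE 0.193, edgeR adjusted p = 0.0125) and Hdac11 (0.46, SE 0.155, adjusted p = 0.0314). The 15 lower in D1 were 7 of the 12 SWI/SNF subunits (Arid1a, Arid1b, Arid2, Smarca2, Smarca4, Smarcd3, Smarce1), the chromatin reader genes Arid4a and Arid4b, the demethylases Kdm5a and Kdm7a, the methyltransferase family genes Kmt2a and Kmt2e, the acetyltransferase Kat2b and the deacetylase Sirt7. Over all 68 members 32 were higher and 36 lower in D1, with a median log2 difference of −0.03.

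Nearly all of this rested on the 2 D2 Susceptible libraries with few genes detected. Without them 2 of 68 members passed, Sirt7 and Smarcd3, where 10.4% of all genes did. Without replicate 3 instead, 27 passed, where 31.4% of all genes did. Oligodendrocyte markers moved with these libraries as well: they summed to 1838 and 1395 CPM in D2 Susceptible replicates 1 and 2 and to at most 1278 in any other library, and 3 of 5 were called higher in D2 in Susceptible mice. Their part in the member differences was not tested. Arid4a (ENSMUSG00000048118, chromosome 12, 71015990 to 71098592, plus strand), which binds the retinoblastoma protein, was at 528, 423, 121, 216 and 148 CPM in D2 Susceptible replicates 1 to 5 and at 142, 132, 128, 88.2 and 82.0 in D1 Susceptible. Replicates 1 and 2 were far above all others, and replicates 3 to 5 overlapped the D1 libraries. The difference of −1.33 (SE 0.301, edgeR adjusted p = 0.00258) became −0.48 without them (adjusted p = 0.241).

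Kdm5a was at 280, 287, 82.7, 133 and 92.9 CPM in D2 Susceptible and 104, 80.7, 82.5, 66.4 and 60.3 in D1 Susceptible. The same replicates stood apart, and the difference went from −1.16 (SE 0.264, edgeR adjusted p = 0.00264) to −0.37 without them (adjusted p = 0.269). Kmt2e was at 520.4, 380, 107, 173 and 119 CPM against 137, 94.9, 104, 88.9 and 91.3, and its difference went from −1.34 (SE 0.311, edgeR adjusted p = 0.00319) to −0.35 (adjusted p = 0.357).

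Hdac5 moved the other way, at 31.8, 29.4, 71.8, 52.5 and 63.2 CPM in D2 Susceptible and 72.7, 71.3, 67.2, 91.2 and 92.8 in D1. Its difference was 0.36 without replicates 1 and 2 (edgeR adjusted p = 0.204). Hdac11 was at 113, 116, 241, 183 and 233 CPM in D2 Susceptible and 228, 247, 248, 276 and 219 in D1, and its difference was 0.18 without them (adjusted p = 0.414). The call for Hdac11 was also lost without D1 Susceptible replicate 4 or without either of D2 Susceptible replicates 1 and 2 alone. For these 2 deacetylases, as for the 3 genes before, replicates 1 and 2 were the extreme values of the D2 Susceptible group.

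**Figure D3:**
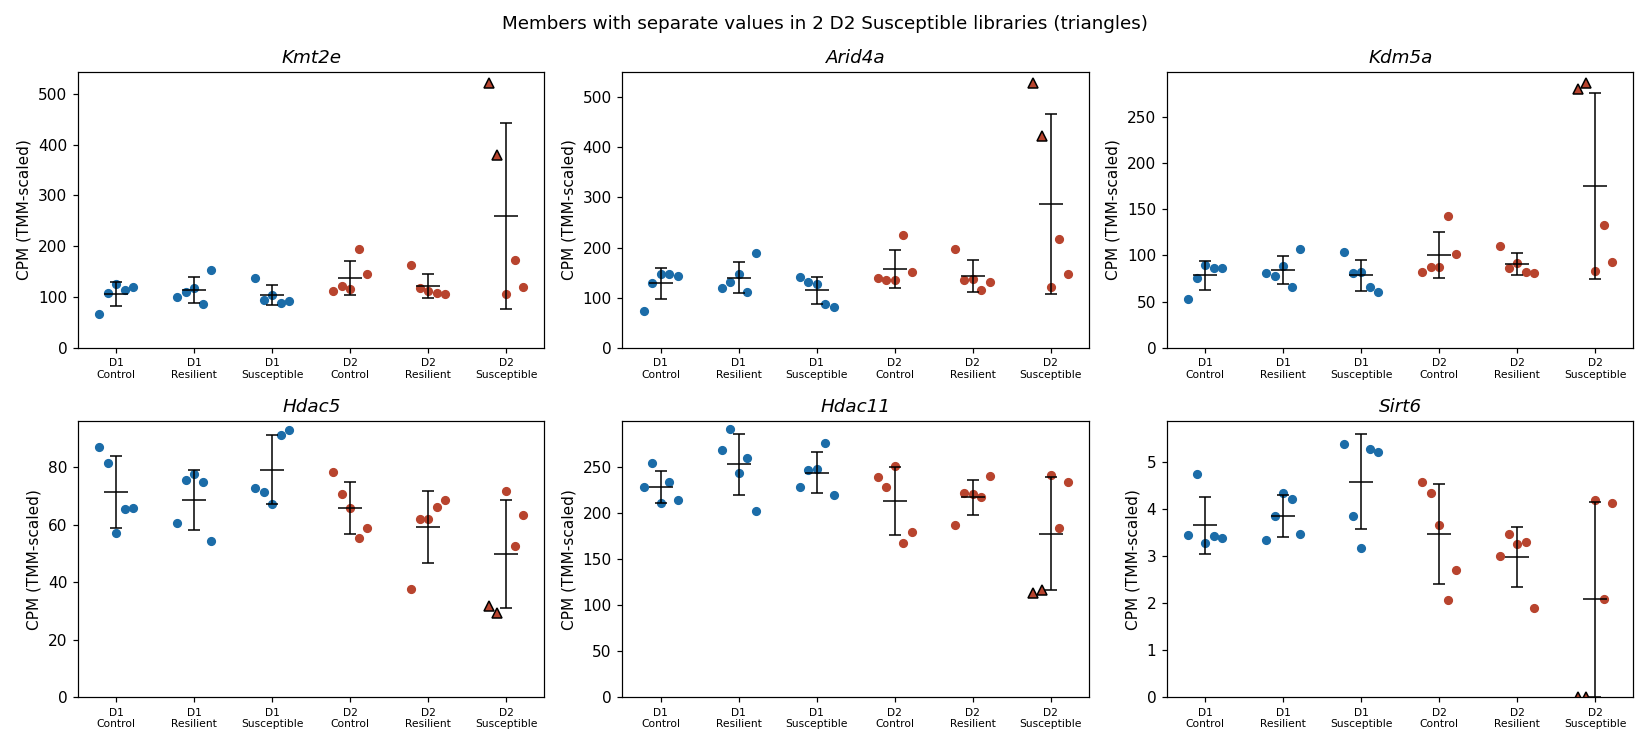
CPM of 6 members in each library (points) with the mean and SD of each group of 5 (bars), D2 Susceptible replicates 1 and 2 as triangles. These 2 libraries are highest for Kmt2e, Arid4a and Kdm5a, lowest for Hdac11 and at 0 for Sirt6.

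Sirt7, a nucleolar and nuclear deacetylase of the sirtuin family, and Smarcd3 were called with and without these libraries, but neither with only the 2 groups in the fit. Sirt7 (ENSMUSG00000025138, chromosome 11, 120618372 to 120625240, minus strand) was at 15.4, 17.1, 16.2, 20.5 and 13.5 CPM in D1 Susceptible and at 22.3, 17.6, 23.3, 24.5 and 24.9 in D2 Susceptible. The groups overlapped through 1 library of each. The difference was −0.44 (SE 0.113, edgeR adjusted p = 0.00536) and −0.52 without the 2 libraries (adjusted p = 0.00235), and again −0.44 with only the 2 groups in the fit (adjusted p = 0.104). In Resilient mice all D2 values, 19.0 to 22.8 CPM, were above all D1 values, 16.1 to 18.7, at −0.25 (SE 0.112, edgeR adjusted p = 0.265).

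**Figure D4:**
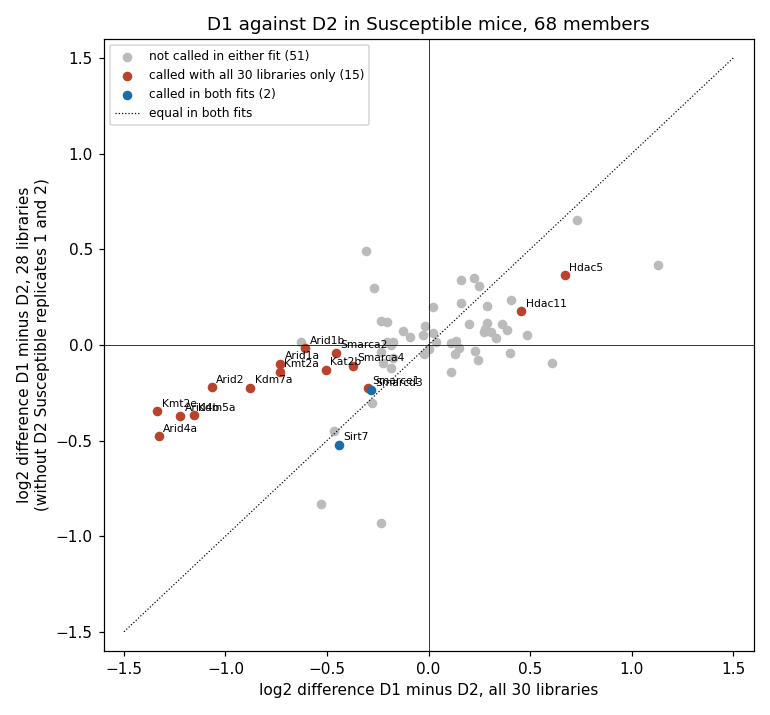
Log2 difference D1 minus D2 in Susceptible mice for the 68 members with all 30 libraries (horizontal) and with 28, leaving out D2 Susceptible replicates 1 and 2 (vertical); colours show in which fit a member passed an adjusted p of 0.05. Sirt7 and Smarcd3 passed in both and 15 members with all libraries only, most of which lie nearer to 0 on the vertical axis.

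Between D2 Susceptible replicates 1 and 2 and replicates 3 to 5, 36 members were higher and 32 lower, 12 by more than 2-fold upward and 9 by more than 2-fold downward. The median over members was 0.05 on the log2 scale, against −0.16 over all 19368 genes, of which 6.31% were over 2-fold higher and 11.2% over 2-fold lower. These values describe libraries that were set apart by how few genes they detected, and no test was made of them. Besides Kmt2e, Arid4a and Kdm5a, the genes over 2-fold higher were Arid4b, Arid2, Hdac9, Kdm7a, Arid1a, Kmt2a, Arid1b, Arid3a and Hdac4. Those over 2-fold lower were Sirt6, Kat8, Arid3b, Kdm4d, Kdm4b, Kdm8, Sirt2, Kdm4a and Hdac5.

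Kat8, the acetyltransferase of H4 lysine 16, was at 7.28 and 6.88 CPM in replicates 1 and 2 and at 26.4, 19.7 and 21.4 in replicates 3 to 5. Sirt6, a deacetylase bound to chromatin, had 0 counts in both, which allows up to 0.0644 and 0.0543 CPM (3 counts), against 4.18, 2.08 and 4.12 CPM in the others. Kdm4d was also at 0 in both, and Kdm8 in replicate 1. These limits cover counting error only. The spread of the members' log2 deviations from their means had an SD of 1.01 and 0.843 in these libraries and of 0.152 to 0.357 in the other 28.

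In these libraries a member's direction went with the GC content and length of its transcript, and GC content went with values in other libraries too. Over the 68 members the log2 difference had r = −0.45 (rho = −0.45) with GC content and r = 0.51 (rho = 0.52) with transcript length. Over 14943 genes with a coding transcript r was −0.18 and 0.02. The points share their libraries, and these are descriptions across genes. Of the 22 members with the lowest GC content (39.6% to 48.5%), 18 were higher in replicates 1 and 2, with a median of 0.35. Of the 22 with the highest (55.3% to 61.0%), 7 were higher, with a median of −0.34. Arid1b (59.1%) and Arid1a (56.7%), with long transcripts, were among the GC-rich members that were higher, and Smarcd3 (59.1%) differed by 0.05. The part of GC content, length and RNA quality in the class differences was not tested.

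**Figure D5:**
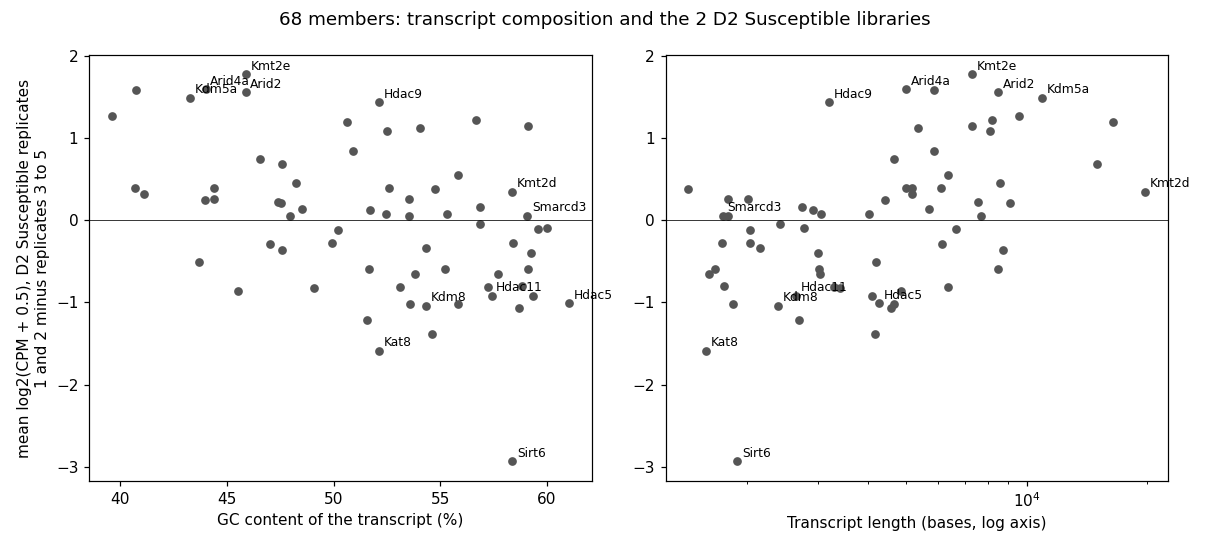
Mean log2(CPM + 0.5) of D2 Susceptible replicates 1 and 2 minus that of replicates 3 to 5 (vertical) for the 68 members, against GC content (left) and length on a log axis (right) of the transcript. Kmt2e, Arid4a and Kdm5a, with long AT-rich transcripts, lie at the top, and Sirt6 and Kat8, with short ones, at the bottom.

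The differences between the classes' changes gave no called member: 0 of 68 for Susceptible against Control (0% of all genes), Resilient against Control (0%) and Susceptible against Resilient (0%). At an unadjusted p under 0.05 there were 10, 1 and 14 members, with 7.79%, 4.99% and 12.4% of all genes. For Susceptible against Control the first were Hdac9 (−0.97, SE 0.359) and Smarce1 (−0.29, SE 0.108), both at an adjusted p of 0.637 in edgeR. For Resilient against Control they were Smarcd3, given above, and Kdm6b (0.40, SE 0.202, adjusted p = 1). For Susceptible against Resilient they were Arid4a (−1.29, SE 0.42, adjusted p = 0.263) and Kmt2e (−1.25, SE 0.434, adjusted p = 0.278). Without D2 Susceptible replicates 1 and 2, the counts at an unadjusted p under 0.05 were 2, 5 and 2. The share of all genes at that p is not given for this setting, so these counts are not a result about the members. No member was called there in edgeR either, where 0%, 0.0049% and 0.0049% of all genes were.

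Other genes of the same complexes were read from the same fit. Of 17 other SWI/SNF subunits, 20 subunits of HDAC co-repressor complexes and 27 other histone methylation and acetylation genes tested, none was called in a stress comparison by edgeR. At an unadjusted p under 0.05 there were 0 to 6 of a list, where 2.4% to 19.1% of all genes had such a p within a class. Within a class the 6 were of the 27 genes, in D2 Susceptible against Control (15.7% of all genes) and against Resilient (19.1%). Between the classes in Control, Actb, a subunit of SWI/SNF as well as of the cytoskeleton, was called lower in D1 (−0.28, SE 0.0607, edgeR adjusted p = 0.00246). Ezh2, the H3 lysine 27 methyltransferase of the Polycomb complex, was at 4.48 ± 0.830 CPM in D1 Control and 7.34 ± 1.73 in D2 Control (SD, n = 5; −0.71, SE 0.195, adjusted p = 0.0185), and was called in the same direction in Resilient (−0.63, SE 0.195, adjusted p = 0.047). The H3 lysine 36 methyltransferase Nsd2 was higher in D1 in Control (0.26, SE 0.0827, adjusted p = 0.0447). In Susceptible, where the 2 libraries enter, 8 of the 20 co-repressor subunits were called, 4 in each direction, where 23.9% of all genes were. Of the 17 other SWI/SNF subunits, 1 was called higher in D1 and 2 lower. Of the 27 other histone methylation and acetylation genes, 2 were called higher and 2 lower. Without these libraries 1 of the 20 co-repressor subunits was called, Mta3, with Actb and Jade1 in the other lists, where 10.4% of all genes were. Among the 8 co-repressor subunits was Ncor1, the scaffold of the complex that holds Hdac3 (−1.09, SE 0.293, edgeR adjusted p = 0.0084). Its difference was −0.15 without the 2 libraries (adjusted p = 0.726).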

How the data were processed

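Per the labels' protocols, ribosomes were pulled down with an anti-HA antibody from pooled tissue punches, and SMART-Seq v4 libraries were made from 10 ng of RNA. The authors deposited raw, unnormalized counts of reads per gene, 30 libraries by 55335 genes. The submitters' processing notes name HISAT2, HTSeq, GRCm38 and mm10. Versions, annotation release and the treatment of strand were not stated in what was used here. The closing lines of unassigned reads (10.1% to 53.3% of a library) were left out. Symbols and coordinates are those of GENCODE M21 (GRCm38).

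After filterByExpr (minimum count 10, minimum total 15), 19368 genes were tested. Counts were scaled by TMM and fitted in edgeR 4.0.16 (R 4.3.3), with all 6 groups in a single robust quasi-likelihood model. The 12 comparisons were each adjusted by Benjamini-Hochberg over all genes, at 0.05. The script was tested on simulated data. CPM use TMM-scaled library sizes, and each SE was derived from the F statistic. A count of 0 allows up to 3 counts.

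The members and lists were chosen with earlier results of these data known. The text names, per comparison, up to 3 passing members each way by adjusted p, or the 2 of smallest p where none passed, and 25 members whose levels are given by role. Others are named where a count or pattern singled them out, after their values were seen. Alternatives were DESeq2 1.42.0, its size factors in edgeR, no filter, only the groups compared, a block for the replicate number, voom with quality weights (limma 3.58.1), and leaving out each library, D2 Susceptible replicates 1 and 2, or 4 libraries (these, D2 Resilient replicate 5 and D1 Susceptible replicate 1). Of the 5 D2 markers, 1 was not analysed here. Figures were drawn with matplotlib 3.10.9.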

Additional observations from a re-analysis of the deposited data

Results flagged for a closer look

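Single libraries far from the other 4 of their group were looked for in 33 members over 6 groups, 198 sets of 5 values, by the gap to the nearest other value relative to the group's range. This marked 19 sets, and chance marks about 1 in 20. The rule misses 2 libraries that stand apart on the same side, as D2 Susceptible replicates 1 and 2 did for many members. Their members' log2 deviations had an SD of 1.01 and 0.843, against at most 0.357 in the other 28, so the marks do not rank the libraries. The cause of no marked value was tested.

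In D2 Resilient replicate 1, 6 members stood apart: Arid4a at 197 CPM (others 115 to 138), Kmt2e at 163 (105 to 118), Sirt1 at 28.4 (13.9 to 15.6), Hdac9 at 18.7 (9.34 to 11.8), Kdm5b at 102 (81.7 to 85.1), and Hdac5, low at 37.6 (61.8 to 68.6). In D2 Control replicate 4, Arid4a was at 224 CPM (135 to 151) and Smarca4 at 300.5 (205 to 222), and Sirt2 was low at 25.0 (37.2 to 41.7) and Smarcad1 at 12.99 (18.95 to 20.3).

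D1 Control replicate 1 had low Arid4a at 74.3 CPM (129 to 148) and Kmt2e at 66.0 (109 to 126), with Kmt2a high at 78.0 (42.5 to 48.3). D1 Resilient replicate 5 was high for Hdac2 at 281 CPM (222 to 233), Kat6a at 36.7 (29.6 to 31.2) and Kmt2a at 61.8 (41.5 to 45.7). D1 Susceptible replicate 1 was high for Arid1a at 239 CPM (162 to 182) and Arid1b at 123 (73.5 to 80.6). Kat6a was at 51.0 CPM in D2 Susceptible replicate 1 (33.7 to 38.4). Arid4a was marked in 3 groups, and Kmt2e, Kmt2a and Kat6a in 2 each.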

How the results depend on the processing

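Counts of called members moved as follows, each with the share of all genes called in brackets, and the cause was not tested. Between D1 and D2 in Control, 2 members (8.3%) became 1 with no filter (4.23%), 4 with only the groups compared (15.6%), 4 without D2 Susceptible replicates 1 and 2 (15.3%), 5 without 4 libraries (16.2%) and 9 with voom (28.4%). In Resilient, 0 (6.65%) became 2 (12.7%), 1 (11.3%), 2 (12.5%) and 5 (17.6%) under the last 4 of these. In Susceptible, 17 (23.9%) became 0 with only the groups compared (5.48%), 2 without the 2 libraries (10.4%), 2 without the 4 (10.6%) and 4 with voom (17%). DESeq2 called 2 members between D2 Susceptible and Control and 13 between D2 Susceptible and Resilient (1.32% and 5.04%). voom called 1 (Smarcd3) between D1 Resilient and Control and 1 (Smarcd3) for the D1 minus D2 change of Resilient against Control (0.893% and 0.873%).

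Leaving out each library in turn gave 1 to 3 members for D1 against D2 in Control, 12 to 27 in Susceptible, 0 to 9 for D2 Susceptible against Control and 0 to 15 for D2 Susceptible against Resilient, and 0 in every other comparison. The counts of 27, 9 and 15 came without D2 Susceptible replicate 3, where 31.4%, 4.19% and 9.93% of all genes were called. The direction of Arid1a between D2 Susceptible and Control turned to −0.032 without the 2 libraries and −0.029 without the 4. The other alternatives for named genes kept their direction.

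With the replicate number as a replicate block, D1 against D2 gave 2 members in Control (7.13% of all genes) and 17 in Susceptible (20.1%). It gave 0 in Resilient (5.86%), and the other comparisons also gave 0. The counts of members did not move, while these shares of all genes were lower than in the main fit. Same-numbered libraries of different groups did not deviate together (75 pairs, r from −0.17 to 0.08), so the numbers do not pair the libraries. Depth limits members near 0, such as Arid3c. It limits more in D1 Susceptible replicate 1, with 28996168 counts and 54.9% of them on 1 gene, where 3 counts stand for 0.304 CPM. Total counts do not show every limit. Sirt6 had 0 counts in D2 Susceptible replicates 1 and 2, which held 48699934 and 55747736 counts.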
